A study of Mus musculus with 6 samples.

Results

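Accessible sites around 10 imprinted genes of the mouse were described: H19, Igf2, Kcnq1ot1, Plagl1, Mest, Nnat, Snrpn, Peg3, Meg3 and Dlk1. Peaks were taken where they overlapped the RefSeq span of a gene widened by 50 kb on each side, which gave 57 of the 77629 peaks of the library. The study profiled open DNA by ATAC-seq, which maps where the enzyme Tn5 can insert, in E14 mouse embryonic stem cells and in embryoid bodies, aggregates in which such cells differentiate. Every group carried the NSD1-dTAG modification, so that adding dTAG-13, a degrader compound, removes NSD1, a histone H3 lysine 36 methyltransferase. The sample titles give 6 groups of 1 sample. There were 4 stem cell groups, grown in 2i/LIF, with 500 nM dTAG-13 for 0, 1, 6 or 24 h, and 2 groups of day 6 embryoid bodies, treated and untreated. These times are those of the sample titles, since the treatment entries of the 1 h and 24 h samples both read 6 h. The untreated stem cells (0 h) were analysed here. Nothing below measures an effect of NSD1 loss, because the other 5 groups were not analysed here. There are no replicates, and intervals cover counting error only.

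An imprinted gene is expressed mainly from the copy inherited from 1 parent. Germ cells of one sex methylate the DNA of an imprinting control region and those of the other do not, and the mark is kept on that parental copy after fertilisation, in part through the zinc finger protein ZFP57 and its partner TRIM28. In the mouse, the H19 control region and the Dlk1-Meg3 region (IG-DMR) are methylated on the paternal copy and lie between genes. The regions of Kcnq1ot1 (KvDMR1), Plagl1, Mest, Nnat, Snrpn and Peg3 are methylated on the maternal copy and lie at promoters. The peak list holds no information on alleles, so the 2 parental copies cannot be told apart in any value below. It holds none on DNA methylation either, so whether these cells kept the methylation described was not measured.

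No annotation of control regions was used here, so windows were set from general knowledge relative to RefSeq starts: 2 to 4 kb upstream of H19, 10 to 16 kb upstream of Meg3, and 1 kb either side of the start of the imprinted transcript for the other 6. The start of Snrpn was that shared with Snurf, the first reading frame of the same transcript, and that of Mest was the internal one at chromosome 6, 30738050. The 250 bases upstream of these 6 starts are shown because these are the promoters at which the maternally methylated regions lie, some under a peak and some not. They are RefSeq sequences of GRCm38.p6, read 5′ to 3′ along the transcribed strand. Capitals mark TGCCGC or its reverse complement, the core letters of the ZFP57 site.

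The first 4 have a peak within 1 kb of the start. They lie at chr7:143296548-143296797 on the minus strand (Kcnq1ot1), chr10:13090582-13090831 on the plus strand (Plagl1), chr7:6730420-6730669 on the minus strand (Peg3) and chr7:60005200-60005449 on the minus strand (Snrpn). A peak covered 250 of the 250 bases of Kcnq1ot1 and of Plagl1, 125 of those of Peg3 and 0 of those of Snrpn, whose peaks lie downstream of the start.
Kcnq1ot1: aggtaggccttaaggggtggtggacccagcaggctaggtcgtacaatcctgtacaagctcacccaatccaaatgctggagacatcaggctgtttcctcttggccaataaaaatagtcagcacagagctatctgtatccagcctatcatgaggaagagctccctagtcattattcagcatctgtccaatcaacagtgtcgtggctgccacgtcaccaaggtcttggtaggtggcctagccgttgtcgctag
Plagl1: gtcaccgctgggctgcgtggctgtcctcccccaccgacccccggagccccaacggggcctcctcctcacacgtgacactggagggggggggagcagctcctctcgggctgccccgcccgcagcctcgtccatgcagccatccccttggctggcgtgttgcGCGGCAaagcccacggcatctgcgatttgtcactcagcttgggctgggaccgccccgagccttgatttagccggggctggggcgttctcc
Peg3: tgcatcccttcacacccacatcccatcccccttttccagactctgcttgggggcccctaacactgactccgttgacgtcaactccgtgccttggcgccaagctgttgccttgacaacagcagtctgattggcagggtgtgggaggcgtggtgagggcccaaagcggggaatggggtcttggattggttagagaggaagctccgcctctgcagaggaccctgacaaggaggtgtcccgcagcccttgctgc
Snrpn: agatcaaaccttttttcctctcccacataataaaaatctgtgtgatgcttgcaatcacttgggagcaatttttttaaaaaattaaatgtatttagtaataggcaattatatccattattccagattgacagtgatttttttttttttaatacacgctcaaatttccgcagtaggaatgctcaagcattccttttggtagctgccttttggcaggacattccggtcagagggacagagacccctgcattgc

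The other 2 have no peak within 1 kb. They lie on the plus strand at chr6:30737800-30738049 (Mest) and chr2:157559828-157560077 (Nnat).
Mest: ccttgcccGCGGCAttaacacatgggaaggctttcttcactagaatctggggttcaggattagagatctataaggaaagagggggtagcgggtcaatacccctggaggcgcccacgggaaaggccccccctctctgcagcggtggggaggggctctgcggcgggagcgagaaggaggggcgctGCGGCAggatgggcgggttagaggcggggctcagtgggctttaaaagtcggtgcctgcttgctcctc
Nnat: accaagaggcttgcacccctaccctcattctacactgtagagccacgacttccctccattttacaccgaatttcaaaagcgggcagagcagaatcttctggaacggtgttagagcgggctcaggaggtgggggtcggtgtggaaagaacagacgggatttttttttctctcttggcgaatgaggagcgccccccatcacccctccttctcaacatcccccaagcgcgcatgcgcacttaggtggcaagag

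Over the 300 bases from 250 before to 50 after the start, both strands read, TGCCGC was present at 4 of the 6 starts. Mest held 2 matches, and Plagl1, Nnat and Snrpn held 1 each. That of Snrpn spans the start and that of Nnat lies past it, so neither is in the bases shown. Kcnq1ot1 and Peg3 held none in this window. Of 32817 promoter sequences of that length, 11.6% held the letters. Matches thus occurred at starts with a peak and at starts without one. CCATNTT, core letters of the YY1 site, was found at Nnat and at none of the other 5 (16.1% of all promoters). GGNGGCA, core letters of a CTCF site, was likewise found at Nnat and at none of the other 5 (22.2% of all promoters), and these letters can overlap those of ZFP57. CpG dinucleotides, the substrate of DNA methylation, numbered 26 at Plagl1, 17 at Mest, 17 at Nnat, 13 at Peg3, 9 at Kcnq1ot1 and 7 at Snrpn. The median over all promoters was 7. The 17 of Mest and of Nnat, which had no peak, lay below the 26 of Plagl1 and above the numbers of Peg3, Kcnq1ot1 and Snrpn. Whether CpG number goes with a start peak was not tested.

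Of the 8 control regions, 5 held a peak and 3 held none. The 5 were the IG-DMR, KvDMR1 and the Plagl1, Snrpn and Peg3 regions, and the 3 were those of H19, Mest and Nnat. Of the 6 windows set around a gene start, 4 held a peak, near the share of all genes (55.1%) and of protein-coding genes (68.2%) with a peak within 1 kb of a listed start. Each peak is given by its summit pileup, which is the depth of coverage at its highest point (whether in reads or fragments is not stated), and by the authors' fold enrichment over local background. A peak list holds only sites above the authors' threshold. Where the background had its lowest value, 1.3, no pileup under 6 was listed, so a site with 5 or fewer was not detectable. The plot of pileups at the control regions shows the 8 windows.

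**Figure D1:**
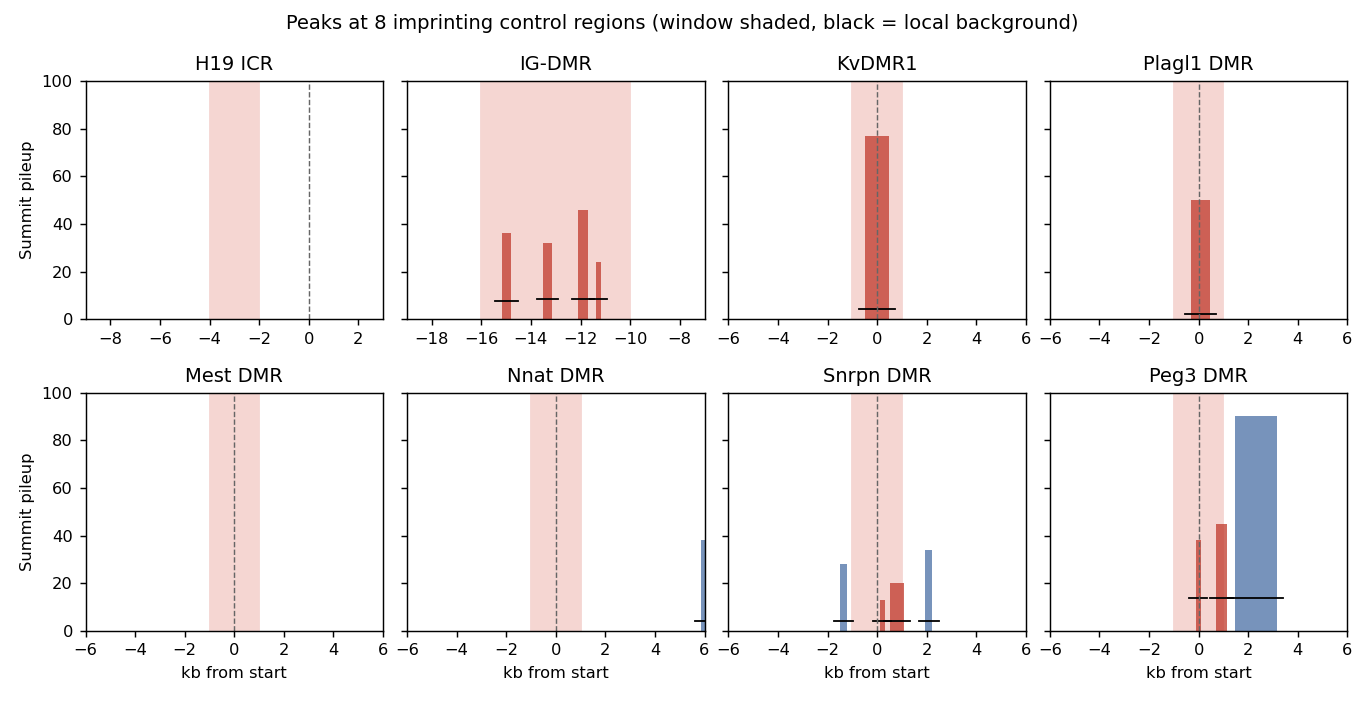
Peaks at the 8 control regions. The x axis is the distance from the gene start in kb along the direction of transcription (dashed line: start), the y axis is summit pileup, each bar spans a peak, red bars overlap the shaded window, blue bars do not, and black lines mark the local background. The windows of H19, Mest and Nnat hold no bar, and those of KvDMR1 and Plagl1 hold a single peak of 77 and 50.

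KvDMR1 and the Plagl1 region each held 1 peak. At Kcnq1ot1, a long non-coding RNA made from the paternal copy that silences neighbours in the Kcnq1 cluster, the peak at chromosome 7, 143296073 to 143297038 had a pileup of 77 (Poisson 95% interval 60.8 to 96.2), a fold of 14.84 and a background of 4.26. Its summit lay 115 bp upstream of the start. At Plagl1, which encodes a zinc finger transcription factor that restrains growth, the peak at chromosome 10, 13090513 to 13091279 had a pileup of 50 (37.1 to 65.9), a fold of 15.38 and a background of 2.32. Its summit lay 48 bp upstream, and the lncRNA gene Hymai overlaps the same peak. Those were the highest folds among the 10 peaks of control regions.

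The IG-DMR, Snrpn and Peg3 regions instead held runs of several peaks. The IG-DMR had 4 peaks whose summits spanned 3.78 kb, at -15.1, -13.4, -11.9 and -11.3 kb from the Meg3 start (negative values are upstream). Their pileups were 36 (25.2 to 49.8), 32 (21.9 to 45.2), 46 (33.7 to 61.4) and 24 (15.4 to 35.7) in that order. The tallest lay at chromosome 12, 109528902 to 109529284. The intervals of the first 3 overlap, while that of the tallest meets that of the lowest only between 33.7 and 35.7. All 4 lay inside the annotated lncRNA gene Gm34081.

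At Snrpn, which encodes the spliceosomal protein SmN, 4 peaks spanned 3.33 kb around the start shared with Snurf. The pileups were 28 at -1.28 kb, 13 at 0.314 kb, 20 at 0.896 kb and 34 at 2.04 kb from that start. The peaks of 13 (6.92 to 22.2) and 20 (12.2 to 30.9) lay within 1 kb of the start, and the taller ones flanked them on either side. At Peg3, which encodes a zinc finger protein linked to growth and maternal behaviour, 3 peaks spanned 1.9 kb. The peak over the start, with its summit 63 bp upstream, had a pileup of 38 (26.9 to 52.2). The next, 0.912 kb into the gene, had 45 (32.8 to 60.2). The third, at chromosome 7, 6727258 to 6728969 and 1.83 kb into the gene, was 1712 bp wide (the median width of all peaks was 485 bp), had a pileup of 90 (72.4 to 111) and lay just beyond the 1 kb window. Its interval lies above those of the other 2.

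Local background differed between the runs. The 3 Peg3 peaks each had a background of 13.7, a level reached by 1.87% of the peaks of chromosomes 1 to 19. The 4 IG-DMR peaks had backgrounds of 7.51 to 8.51, and 10.2% of the peaks of those chromosomes reached the lowest of these. The 4 Snrpn peaks had 4.11 to 4.26, and 26.9% of the peaks reached the lowest of these. The highest of them equals the 4.26 of the single KvDMR1 peak. The median over all peaks was 2.16. Of the 10 peaks of control regions, 9 had a background of 4 or more, against 27.8% of all peaks, and 8 had a fold under 5, against 26.2%. The same 8 peaks, those of the IG-DMR, Snrpn and Peg3 regions, had 2 or more other summits within 4 kb, against 4.96%. They are also among the 9, so the 3 shares are not separate results. These 3 limits were chosen after the values were seen, and the 10 peaks come from 5 regions, so neighbours share their background. A raised local background lowers the fold of a peak by construction: the median fold was 3.74 at control regions and 7.04 over all peaks, while the median pileups were 37 and 23. Start peaks of all genes had a median background of 4.93, a median pileup of 65 and a median fold of 11. A background of 4 or more is therefore not particular to control regions. The median pileup and fold of control regions count every peak in the windows. Those of start peaks count only the tallest peak of each gene, so the medians are not alike in kind. The tallest peaks of the 5 regions had pileups of 46 (IG-DMR), 77 (KvDMR1), 50 (Plagl1), 20 (Snrpn) and 45 (Peg3). In the other 47 peaks of the imprinted loci, the median background was 1.82, the median pileup 23 and the median fold 6.18. Those 47 include the Snrpn peaks of 28 and 34 and the Peg3 peak of 90, which belong to the runs but lie outside the windows. Whether the runs are separate sites or the highest points of a broader open stretch was not tested.

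**Figure D2:**
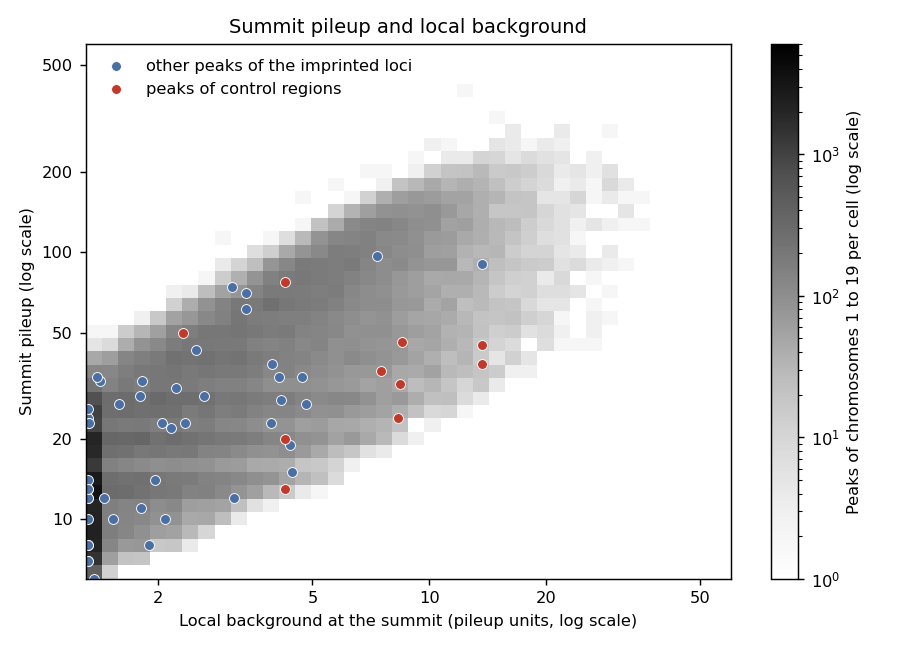
Summit pileup (y axis, log scale) against the local background at the summit (x axis, pileup units, log scale). Grey cells count (log scale) peaks of chromosomes 1 to 19 inside the axes, and points are peaks of the imprinted loci, red for the 10 in control regions. The 2 rightmost red points are Peg3 peaks at a background of 13.7, and the red points at pileups of 77 and 50 are KvDMR1 and Plagl1.

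The 3 control regions without a peak differed in what lay nearby. The H19 control region, which carries CTCF sites that insulate Igf2 from enhancers on the maternal copy, had its nearest summit 30.1 kb from the window's centre. H19, the maternally expressed lncRNA, had no peak within its span or at its start, and the summit nearest to the start lay at -33.1 kb. Mest (chromosome 6, 30733506 to 30748466), which encodes a protein of the hydrolase fold, had none at any of its 3 listed starts, and the nearest summit lay at -39.7 kb from the first of them. Nnat (chromosome 2, 157560078 to 157562525), the gene of neuronatin, lies inside an intron of Blcap, and its nearest summit was that of the Blcap start, 6.28 kb away. With the windows widened by 1 kb on each side, these 3 regions still held no peak.

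Across the 10 genes, the number of peaks per locus ran from 1 at Mest to 14 at Meg3, with a median of 6. The median over 20661 protein-coding genes treated alike was 8 (quartiles 4 and 12), although loci differ in length. The union of the imprinted loci covered 1.65 Mb and held 34.6 peaks per Mb (exact Poisson 95% interval 26.2 to 44.9), an interval that includes the 30.8 per Mb of chromosomes 1 to 19. The loci of all protein-coding genes, widened alike, held 54.5 per Mb, above that interval, though a peak near several genes counts there for each. By locus, density ran from 8.7 per Mb at Mest (0.22 to 48.5) to 107 at Meg3 (58.5 to 180). The interval of Meg3 does not include the overall value and lies above it. That of Snrpn, 15.9 per Mb (7.25 to 30.1), does not include it either and lies below it. Both were singled out among 10 loci, and the intervals of the other 8 include the overall value. These intervals take peaks as independent and are too narrow where peaks cluster. The Meg3 locus holds a run of 4 peaks at the IG-DMR and another of 3 around the Meg3 start. Of the 57 peaks, 27 overlapped the span of a member and 30 lay outside. The peak closest to the 50 kb limit on its inner side lay 5.21 kb within it, near Peg3, with a pileup of 10. The closest outside lay 2.92 kb beyond it, near Plagl1, with a pileup of 12.

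**Figure D3:**
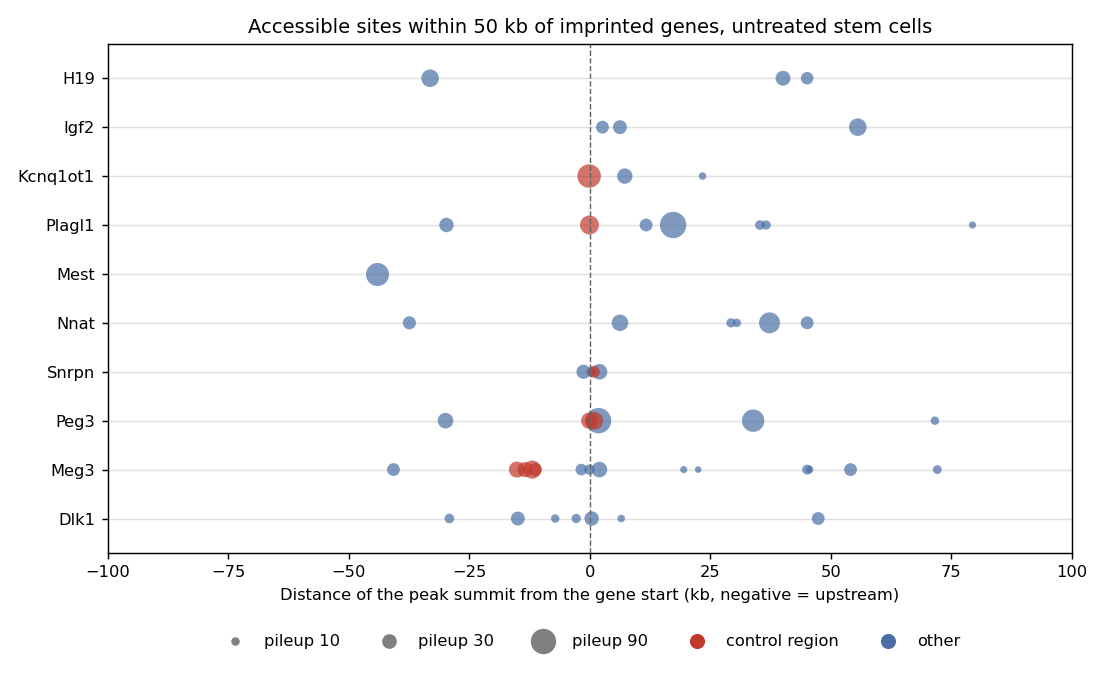
Peaks of each imprinted locus by distance of the summit from the gene start (x axis, kb along the direction of transcription). The area of a point is proportional to its summit pileup, and red points overlap a control region. The 14 peaks of Meg3 and the single peak of Mest mark the range, and 5 Snrpn peaks more than 100 kb upstream fall outside the axis.

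In the H19 and Igf2 domain, the sites lay away from H19 (chromosome 7, 142575530 to 142578146). The H19 locus had 3 peaks with pileups of 22, 31 and 43. The first was at the start of Mrpl23, a mitochondrial ribosomal protein gene, and the second was inside that gene, 45.1 and 40.1 kb downstream of the H19 start. The third, of 43 (31.1 to 57.9), lay at the lncRNA gene Gm33148 and also counts in the Igf2 locus. Igf2, the paternally expressed growth factor, had 2 peaks inside its span, of 27 (17.8 to 39.3) at chromosome 7, 142658955 to 142660894 and of 23 (14.6 to 34.5) at 142663931 to 142664298. The first of these reached 2 of the 4 listed starts of Igf2, and neither lay within 1 kb of the most upstream one. Both overlap the antisense lncRNA Igf2os as well, so they cannot be assigned to either gene.

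In the Dlk1 and Meg3 domain, the 2 loci held 7 and 14 peaks. Their median pileups were 13 and 21, against 23 over all peaks of chromosomes 1 to 19. Dlk1, a paternally expressed transmembrane protein related to Notch ligands, had a start peak of 29 (19.4 to 41.6) at chromosome 12, 109452847 to 109453867. Its other peaks had pileups of 13, 27, 10 and 12 upstream, 8 inside the gene and 23 at 47.4 kb downstream, the last shared with the Meg3 locus. The start peak of Meg3, the maternally expressed lncRNA, had a pileup of 15 (8.4 to 24.7) and a fold of 2.94. It was flanked by peaks of 19 (11.4 to 29.7) at -1.74 kb and 34 (23.5 to 47.5) at 2.02 kb. By pileup, the IG-DMR peaks of 36 and 46 were the tallest of the 14 in the locus. They lay above the start peak, whose upper bound of 24.7 lies below their lower bounds of 25.2 and 33.7. Their folds were 4.35 and 4.94, on a raised background. The highest fold of the locus was 10.31, at the peak of 23 at -40.7 kb. Further along, peaks of 7 and 6 lay inside Meg3, peaks of 14, 8 and 23 inside Rtl1, a retrotransposon-derived gene, and one of 11 inside Rian, a maternally expressed lncRNA.

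The Dlk1 and Meg3 domain carries a large cluster of microRNAs, made from the maternal copy. Of 22 microRNA hairpins in the 10 imprinted loci, 3 overlapped a peak, all of them here. Over the hairpins of chromosomes 1 to 19 the share was 13.4% (123 of 917), so 3 of 22 is near the background. Mir770 lay under the peak of 6 (2.2 to 13.1), the lowest listed pileup, Mir540 under the peak of 14 (7.65 to 23.5) and Mir432 under the peak of 23 (14.6 to 34.5). The 5 mature microRNAs of these hairpins, from RefSeq on GRCm38.p6, are shown with the seed (bases 2 to 8) in capitals. They had 5 different seeds.
mmu-miR-770-5p: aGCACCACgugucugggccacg
mmu-miR-770-3p: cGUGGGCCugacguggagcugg
mmu-miR-540-5p: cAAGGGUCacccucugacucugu
mmu-miR-540-3p: aGGUCAGAggucgauccugg
mmu-miR-432: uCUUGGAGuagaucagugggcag

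In the maternally methylated loci, the tallest sites were not always at the control region. In the Plagl1 locus the tallest peak, with a pileup of 97 (78.7 to 118), lay inside the gene at 17.3 kb from the start, at chromosome 10, 13107676 to 13108371. Its interval lies above that of the start peak (37.1 to 65.9), although its fold was lower, 11.74 against 15.38. Other peaks inside Plagl1 had pileups of 23, 13 and 12, one of 29 lay at Gm40602 upstream, and one of 7 inside Zc2hc1b. In the Kcnq1ot1 locus the start peak of 77 was the tallest, followed by 33 (22.7 to 46.3) at 7.27 kb and 8 at 23.4 kb into the transcript. All 3 lay inside Kcnq1, which spans the antisense RNA.

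In the Peg3 locus, the intragenic peak of 90 was followed by one of 70 (54.6 to 88.4) at the start of Zim1, a maternally expressed zinc finger gene. Peaks of 34 inside Usp29 and 10 inside Zim2 completed the locus. Usp29 starts beside Peg3 in the opposite direction, so the peaks at the Peg3 start count for both genes. In the Snrpn locus, 568 kb long, the peaks other than the run at the control region were 33, 14, 26 and 12 in the upstream part of the gene's span, which also holds the antisense lncRNA Snhg14, and 23 beyond it. The annotated starts of Snrpn further upstream, at 60047978, 60140225 and 60450177 on chromosome 7, had no peak within 1 kb.

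In the Nnat locus, the tallest peak was one of 61 (46.7 to 78.4) inside the lncRNA gene Platr27, 37.3 kb downstream. The Blcap start had 38 (26.9 to 52.2), the gene Gm14279 had 24, and peaks of 12, 10 and 23 overlapped no gene. The single peak of the Mest locus, of 74 (58.1 to 92.9) with a fold of 18.25, lay at the start of Cep41, a centrosomal protein gene, at chromosome 6, 30693367 to 30694027. That was the highest fold among the 57 peaks.

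At gene starts, 7 of the 10 genes had a peak within 1 kb of any listed start. Over all 25749 genes of chromosomes 1 to 19 with a listed start the share was 55.1%, over protein-coding genes 68.2% and over lncRNA genes 31.8%. The 7 of 10 is near the share of protein-coding genes, but H19, Kcnq1ot1 and Meg3 are lncRNA genes, so that share does not match the whole set. The start pileups were 77 for Kcnq1ot1, 50 for Plagl1, 45 for Peg3, 29 for Dlk1, 27 for Igf2, 20 for Snrpn and 15 for Meg3. H19, Mest and Nnat had none. In this order, the Poisson intervals of neighbouring genes overlap. The median of the 7 was 29, against 65 over all genes with a start peak (quartiles 36 and 101), 71 over protein-coding and 42 over lncRNA genes. Of the 7, Kcnq1ot1 alone lay above the median of all genes, and 59.6% of the genes with a start peak had a pileup at or below its own. For Meg3 that share was 6.63%, for Snrpn 11.0% and for Igf2 17.4%. With only the first listed start counted, Igf2 and Snrpn dropped out, which left 5 of 10, against 53.8% of all genes, 66.9% of protein-coding genes and 30.6% of lncRNA genes. The median of those 5 was 45.

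**Figure D4:**
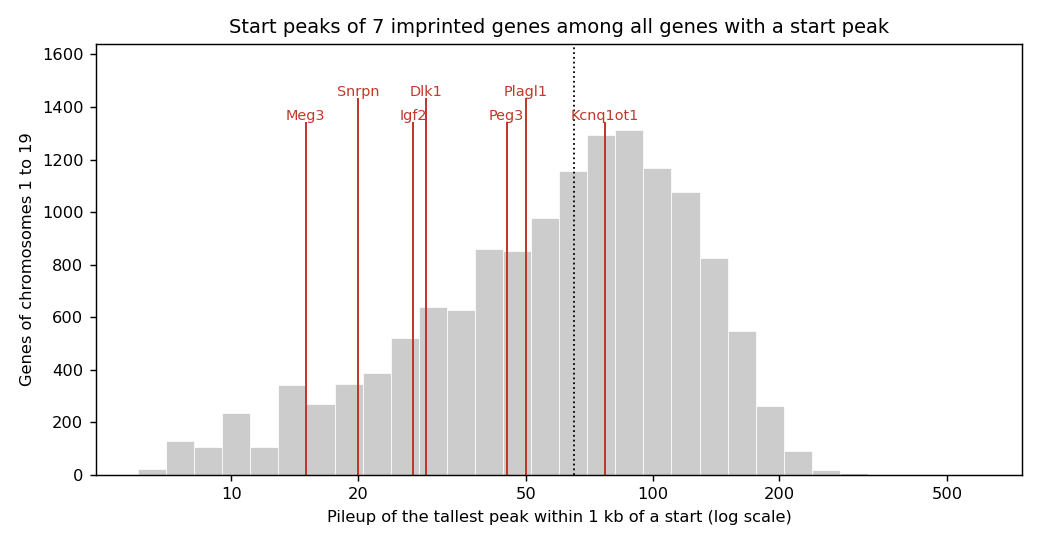
Histogram of the pileup of the tallest peak within 1 kb of a start (x axis, log scale) over genes of chromosomes 1 to 19 that have one (y axis, number of genes). Red lines mark the 7 imprinted genes with a start peak and the dotted line the median of 65. Meg3 at 15 and Snrpn at 20 lie in the lower tail, and Kcnq1ot1 at 77 lies right of the median.

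Other imprinted genes, from a list of 60, were compared in the same way. The promoter table matched 45, of which 37 had a start peak (82.2%), against 55.1% of all genes and 68.2% of protein-coding genes. Their median pileup was 44, with a range of 9 to 195, against 65 over all genes with a start peak. The genes not matched were Kcnq1, Cdkn1c, Ins2, Nap1l4, Zfp264, Klf14, Rtl1, Nespas, Peg10, Sgce, Peg13, Trappc9, Kcnk9, Impact and Dcn. Neighbours can share a peak, and the 37 genes had 36 distinct ones, since Zrsr1 lies inside Commd1 and both took the same peak of 82. Of the 6 genes with a listed start that overlap the loci described above, Copg2 had a start peak of 97, Zim1 of 70, Usp29 of 45, Blcap of 38 and Snurf of 20, and Rian had none. The start of Copg2 itself lies beyond the Mest locus, and the peaks of Usp29 and Snurf are those already counted for Peg3 and Snrpn. Beyond those loci, the tallest were at Tssc4 (195), Inpp5f (166), Ube3a (123), the ubiquitin ligase gene of the Snrpn cluster, Mcts2 (110) and Zdbf2 (85). Cpa4, Ddc, Herc3, Mirg and Slc22a2 were among those without a start peak.

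Start peaks at the other listed genes of 2 of the clusters covered a wide range. In the cluster of the Snrpn region, Ndn, Magel2, Mkrn3 and Peg12 had start pileups of 26, 24, 19 and 23, each with an interval that overlaps that of Snrpn (12.2 to 30.9). Ube3a had 123 (102 to 147) and Atp10a had 52 (38.8 to 68.2), both above that interval. In the Kcnq1 cluster, Tssc4 had 195 (169 to 224), above the 77 at Kcnq1ot1 (60.8 to 96.2). Cd81 had 61, Ascl2, a trophoblast transcription factor, had 58, Phlda2, a placental growth regulator, had 41 and Slc22a18 had 25, while Tspan32 and Th had no start peak. The clusters were chosen for description after the values were seen. Airn, the antisense lncRNA of the Igf2r cluster, had 18 and Igf2r had 47 (34.5 to 62.5), and this pair was likewise named after its values were seen.

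Genes whose products set, keep or erase imprints all had a start peak where they could be matched. Of 16 listed, 14 were matched and 14 had a peak, against 55.1% of all genes and 68.2% of protein-coding genes. Their median pileup was 109.5, with a range of 39 to 199, against medians of 65 over all genes with a start peak and 71 over protein-coding ones. Dppa3 and Ctcfl were not matched. With only the first listed start counted, Zfp57 and Dnmt1 dropped out, which left 12 of the 14, against 53.8% of all genes. With the summit required in the window, 13 had a start peak. Kdm1b, a histone demethylase needed to set maternal imprints in oocytes, had 199, Trim28 had 171 and Yy1 had 135. Zfp57 had 112 (92.2 to 135) and Ctcf, the insulator protein of the H19 control region, had 120 (99.5 to 143), a pair named for the proteins introduced above after the values were seen. For comparison, 7 of 7 stem cell markers, Pou5f1, Sox2 and Nanog among them, had a start peak (median 114, range 28 at Esrrb to 152 at Pou5f1). Of 10 listed markers of other cell types, Gata6, Gata4, Sox17 and Thy1 were not matched. Of the 6 matched, 4 had a start peak (66.7%), near the 68.2% of protein-coding genes. These were Cdx2 (36), Neurod1 (23), Elf5 (18) and Pax6 (15), while Col3a1 and Acta2, markers of fibroblasts and smooth muscle, had none.

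**Figure D5:**
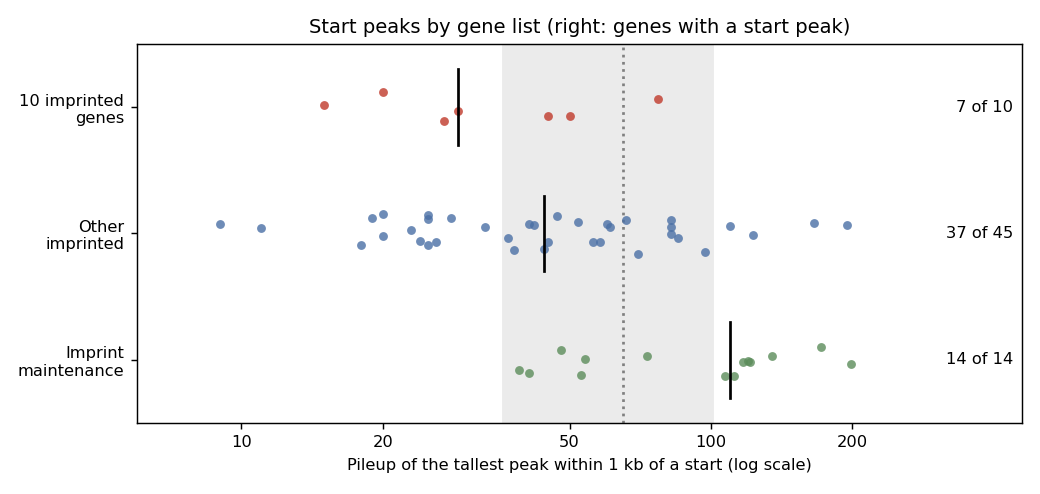
Pileup of the tallest peak within 1 kb of a start (x axis, log scale) for each gene of 3 lists (rows), with the median as a black bar and the number of matched genes with a peak at the right. The grey band spans the quartiles 36 and 101 and the dotted line the median of 65 over all genes with a start peak. The medians are 29 for the 10 imprinted genes, 44 for the other imprinted genes and 109.5 for the maintenance genes.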

How the data were processed

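The deposited file lists ATAC-seq peaks of 1 library, and the peaks were called on that 1 sample. Among the tools in the submitters' processing notes are MACS2 2.2.6, a peak caller, and Bowtie2 2.3.4.1, an aligner, and the builds named there are mm10 and GRCm38.p6. How reads were filtered, and whether they were shifted to the Tn5 cut, is not stated in those sources, and either would move pileups and peak edges. The list gives the authors' integer score, the authors' fold enrichment (a ratio of summit to local background), and the deposited -log10 p and -log10 q. No peak had a -log10 q under 1.3 (a q of 0.05). Peak numbers run from 1 to 77629 with none missing.

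Each summit's pileup and local background were solved for from the fold, taken as (pileup + 1)/(background + 1), together with the -log10 p, taken as a Poisson tail. A whole pileup matched the -log10 p within 0.01 for all 77629 peaks. The total depth of the library is unknown. Positions are printed from 1. Gene spans and starts came from RefSeq tables of GRCm38.p6, which held starts for 9 of the 10 genes. H19 was given the minus strand, from general knowledge, as were the windows of the control regions. An overlap of 1 bp with a window was enough to count a peak. Named genes were the 10 members, listed imprinted genes in their loci, the 5 tallest and first 5 without a peak among the rest, and the 3 tallest of the maintenance list. Other genes of the Snrpn, Kcnq1 and Igf2r clusters, Zfp57, Dnmt1, Ctcf and the shared peak of Zrsr1 and Commd1 fall outside that rule and were named after their values were seen. The members and lists were chosen with earlier results of these data known. With 1 library no p-value was computed. The functions were checked on simulated data, where all of 5000 pileups and all of 2000 windows were recovered. The scripts ran under Python 3.11.15 with scipy 1.17.1, pandas 2.3.3 and numpy 2.4.6, and figures were drawn with matplotlib 3.10.9. Alternatives varied the q and pileup thresholds, the windows, the flank and the overlap rule.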

Additional observations from a re-analysis of the deposited data

How the results depend on the processing

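The count of control regions with a peak stayed at 5 under every alternative run (a -log10 q of at least 5, a pileup of at least 20, the summit required in the window, and windows widened by 1 kb). The Snrpn region met the pileup limit only just, since the tallest peak in its window had a pileup of 20. With a pileup of at least 20 required, the loci held 36 peaks and their density was 21.9 per Mb, against 17.9 per Mb over chromosomes 1 to 19. With a -log10 q of at least 5 the density was 26.1 per Mb, against 25.2. The median over members at their starts was 4.82 when fold enrichment took the place of pileup. With the first listed start only, a setting chosen after seeing the data, the median pileup was 45 over the 5 members that then had a peak. Igf2 and Snrpn lost theirs, since their peaks lie at later starts. The other settings moved no count by over 1.5 times. Against the loci of all protein-coding genes (54.5 per Mb, a peak near several genes counting for each) the comparison of density turned, since that value lies above the interval of the imprinted loci (26.2 to 44.9) while 30.8 lies inside it. No paired analysis was possible because each group has 1 sample, and only 1 library was analysed. At the genome-wide background of 1.3, sites with a pileup of 5 or less could not be listed, and no spread between libraries was measured.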
